A study of Rattus norvegicus with 9 samples.

Results

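Histone genes were followed in the femur of rats, as messenger RNA measured by sequencing. A row of the deposited gene table counted as a histone gene when its symbol began with Hist1h to Hist4h, H1f, H2af or H3f, which gave 34 of 32623 rows. Of these, 29 had a mean of at least 0.5 FPKM (read fragments scaled by gene length and library depth) over the 9 libraries and were tested, beside 15144 such rows in the whole table. The 34 rows fell into 3 sets. The 22 rows with Hist symbols, of which 21 were tested, stand for the replication-dependent core histones. A further 5 linker histone rows, of which 4 were tested, are named as cluster members in the deposited descriptions and are called clustered H1 here. The last set of 7 rows, of which 4 were tested (H3f3a, H3f3b, H3f3c and H1f10), holds the replacement histones.

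The study had 3 groups of wild-type rats with 3 libraries each: rats labelled only as SD (control), ovariectomized rats, and rats given Desertliving Cistanche herb (treated). Whether the control rats had any operation, whether the treated rats had also been ovariectomized, their dose and the ages are not stated in the labels. Nothing in the labels says that the 3 libraries of a group came from separate animals, so the tests measure the spread between libraries, which may be technical. The RNA was poly(A) RNA of whole femur, so that fewer cells of a type and less RNA per cell cannot be told apart. Libraries held 54992823 to 66531156 counts. Markers of bone cells and of marrow cells were all present: none of the 6 osteoblast genes, 7 erythroid precursor genes or 8 B cell precursor genes was at 0 counts in every library.

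Histones are the proteins that package DNA. Core histones H2A, H2B, H3 and H4 form the nucleosome, and linker histone H1 binds where DNA enters and leaves it. Replication-dependent histone genes lie in clusters, lack introns and are transcribed mainly while DNA is copied. Their messenger RNAs usually end in a stem-loop bound by Slbp instead of a poly(A) tail. Replacement histones are made throughout the cell cycle, in part in cells that no longer divide, from messenger RNAs with a poly(A) tail. Selection of poly(A) RNA therefore keeps replacement transcripts and loses most replication-dependent ones, so the Hist levels given here are those of the fraction that was captured.

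The sequences before the start sites are shown because the clustered genes share short motifs there that the rule did not use. Of the 34 rows, 16 matched a RefSeq promoter of the GRCr8 build by symbol, chromosome and strand. The 150 bases that end at the base before the start are printed for the 3 highest clustered H1 genes and for H1f10, a replacement linker histone. The same stretch is printed for the 3 highest H2B genes of the Hist set. They lie at chr17:47421725-47421874 (plus strand) for H1f5, chr17:41914275-41914424 (plus) for H1f4, chr17:41820454-41820603 (minus) for H1f2, chr4:121998898-121999047 (minus) for H1f10, chr17:41869342-41869491 (minus) for Hist1h2bq, chr10:44225271-44225420 (plus) for Hist3h2ba and chr2:186469302-186469451 (plus) for Hist2h2be. Capitals mark 4 motifs, searched on both strands: the CCAAT box, the TATA box spelled TATAAA, the octamer ATTTGCAT and the H1 box AAACACA. Neighbouring capitals can belong to overlapping matches. The motif AAACACA was added after the sequences had been seen.
H1f5: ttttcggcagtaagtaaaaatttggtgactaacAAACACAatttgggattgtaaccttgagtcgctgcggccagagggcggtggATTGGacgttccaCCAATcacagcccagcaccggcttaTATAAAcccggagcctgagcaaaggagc
H1f4: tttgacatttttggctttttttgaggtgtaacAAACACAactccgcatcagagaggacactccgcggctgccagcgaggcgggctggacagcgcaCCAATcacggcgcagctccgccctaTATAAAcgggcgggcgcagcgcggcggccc
H1f2: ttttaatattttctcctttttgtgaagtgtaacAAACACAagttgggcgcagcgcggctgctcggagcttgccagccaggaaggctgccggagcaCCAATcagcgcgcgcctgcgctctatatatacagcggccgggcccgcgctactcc
H1f10: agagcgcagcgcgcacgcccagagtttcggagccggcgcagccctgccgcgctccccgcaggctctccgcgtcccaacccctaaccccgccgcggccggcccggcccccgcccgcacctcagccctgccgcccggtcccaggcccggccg
Hist1h2bq: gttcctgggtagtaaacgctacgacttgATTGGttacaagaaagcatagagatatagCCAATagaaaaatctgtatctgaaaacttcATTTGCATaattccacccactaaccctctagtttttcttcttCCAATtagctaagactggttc
Hist3h2ba: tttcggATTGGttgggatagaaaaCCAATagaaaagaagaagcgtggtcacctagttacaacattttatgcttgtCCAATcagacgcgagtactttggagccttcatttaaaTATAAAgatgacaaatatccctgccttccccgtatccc
Hist2h2be: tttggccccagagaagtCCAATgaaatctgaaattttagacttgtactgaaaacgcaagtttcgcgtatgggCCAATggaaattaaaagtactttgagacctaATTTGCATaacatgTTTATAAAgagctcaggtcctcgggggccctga

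H1f5, H1f4 and H1f2 shared AAACACA at -117, -118 and -117 from the start and CCAAT at -53, -55 and -55. TATAAA began at -28 in H1f5 and at -30 in H1f4, and these letters did not occur in the H1f2 window of 300 bases, which runs from 250 bases before to 50 after the start. The H1f10 window held none of the 4 motifs. The octamer ATTTGCAT, known from H2B promoters, began at -63 in Hist1h2bq and at -47 in Hist2h2be, and was not found in the Hist3h2ba window, which held TATAAA and CCAAT. Over the matched genes, CCAAT was present in 7 of 8 Hist and 5 of 5 clustered H1 windows, against 37.5% of all 33469 RefSeq promoters of that length. TATAAA was present in 5 of 8 and 3 of 5, against 14.2%. Its only match lay far upstream in Hist1h2af (-232) and Hist1h2bo (-236). ATTTGCAT was present in 3 of 5 H2B windows and in 5 of 8 Hist windows, against 1.78%, and AAACACA in 4 of 5 clustered H1 windows, against 6.99%. Of the 3 matched replacement windows, 1 held CCAAT and AAACACA (H1f8, which was not tested) and none held TATAAA or ATTTGCAT. These are matches of letters only.

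The replacement histone H3f3b had the highest level, at 1426, 1657 and 1466 FPKM in control libraries 1 to 3, 1472, 1740 and 1647 in ovariectomized and 1500, 1574 and 1549 in treated libraries. All groups overlapped. H3f3a, which encodes the same variant of H3, ranged from 310.1 FPKM in control library 3 to 435.1 in treated library 3. Both symbols are those of the deposited table. Each of these rows lies on another chromosome than RefSeq gives for its symbol, so which gene each row stands for is uncertain. The order of the H3f3a and H3f3b rows rests on the length by which counts were divided: the deposited counts and FPKM imply 411 bases for H3f3b and 1653 for H3f3a, and the ratio of their counts was 0.87 to 1.17 over the libraries. H3f3c followed with a mean of 127.4 FPKM, and H1f10, a linker histone outside the clusters, with 25.2.

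Among replication-dependent rows, the linker histone H1f2 was highest, with a mean of 145.2 FPKM and a range of 107.2 to 175.6. Its range overlapped that of H3f3c (82.2 to 251.8), so these neighbours in the order did not differ beyond their spread. H1f2 made up 80.0% to 93.4% of the summed FPKM of the clustered H1 rows. H1f4 and H1f5 followed with means of 10.2 and 6.79 FPKM, and H1f1 with 0.95. In the core set the H2B genes Hist1h2bq, Hist3h2ba and Hist2h2be were highest, at means of 61.6, 45.9 and 23.2 FPKM. Hist1h2bq and Hist3h2ba together held 35.8% to 47.2% of the Hist sum. The H2A pair Hist2h2aa3 and Hist2h2aa2 followed at 16.9 and 14.9 FPKM, then Hist2h4a at 14.8, Hist1h3b at 11.9 and Hist1h2bd at 9.46. The remaining 13 tested Hist rows had means from 1.60 (Hist2h3c2) to 6.15 FPKM (Hist1h2ak).

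Just outside the threshold was Hist1h4b at a mean of 0.34 FPKM, and just inside was H1f1. H1f6, a testis linker histone, was at 0.092 and the oocyte linker histone H1f8 at 0.011 FPKM, with counts in 1 library. H1f7 and H2afb3 had 0 counts in all 9 libraries, which does not exclude a level too low to be counted.

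**Figure D1:**
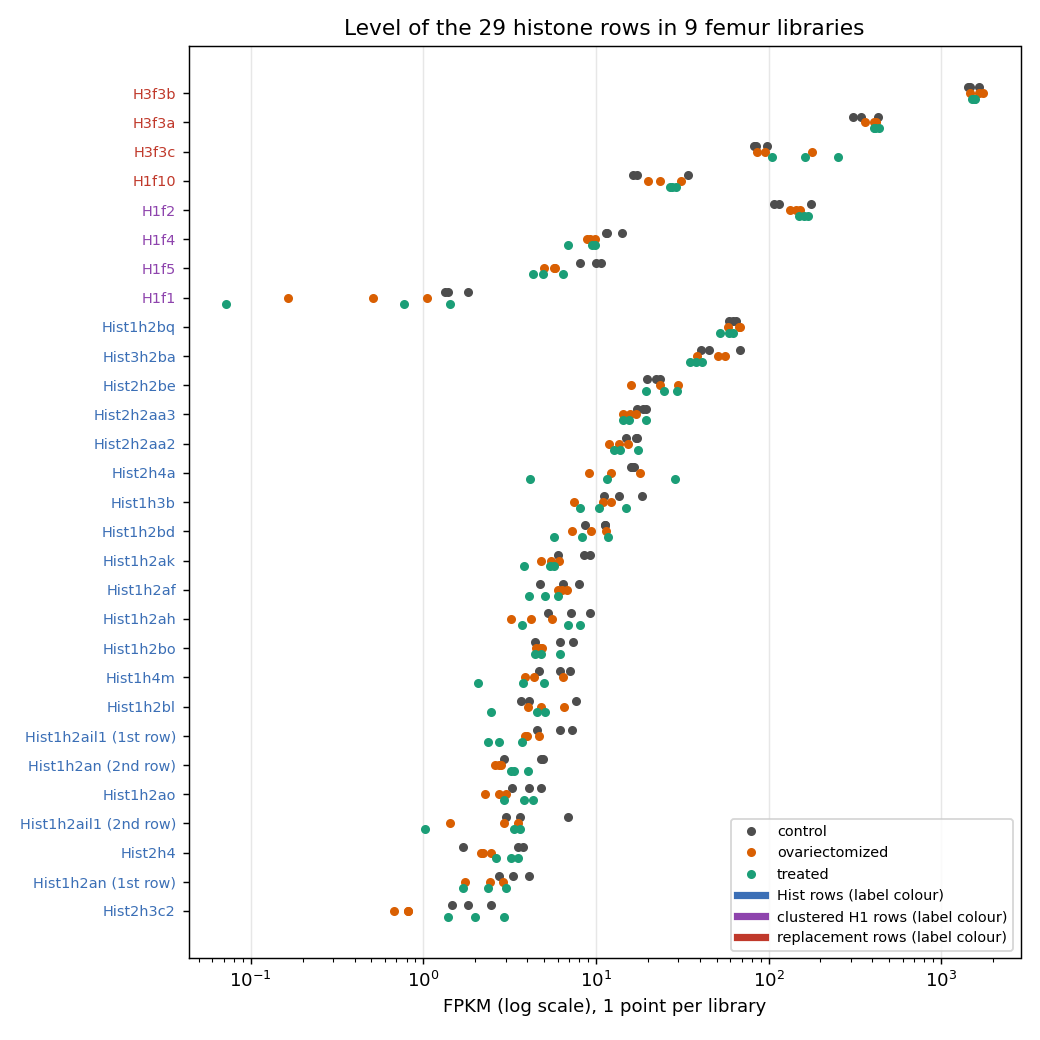
FPKM on a log axis for the 29 histone rows tested, 1 point per library, coloured by group, with row labels coloured by set. H3f3b, H3f3a, H3f3c and H1f2 sit above all Hist rows in the mean, and H1f1 has the widest spread, from 0.072 to 1.82 FPKM. The (1st row) and (2nd row) of a symbol are its rows by start position.

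Some rows may share reads with copies, whose sequences were not compared here. Hist2h2aa3 and Hist2h2aa2 are neighbours on chromosome 2, and the ratio of their counts stayed between 1.08 and 1.19 in all 9 libraries. Reads could be split between such copies, so single rows of these families are uncertain. Hist1h2ail1 and Hist1h2an each occur in 2 rows, and the count ratio of the 2 Hist1h2ail1 rows ranged from 0.76 to 2.75. The Hist1h2ail1 rows span 411 bases, as do the rows named for H3 (Hist1h3b and Hist2h3c2), while the H2A row Hist1h2ak spans 393. Hist1h2ao spans 312 bases on chromosome 4, the length of the rows named for H4. Of the 34 rows, 24 had the same chromosome as the symbol in RefSeq, 4 another one (H3f3a, H3f3b, Hist1h2ao and Hist1h4b) and 6 had no RefSeq row. Of 22 Hist rows, 18 span 312 to 411 bases, about the coding length of a core histone alone, so reads in untranslated ends were outside these rows. H1f5 and the first Hist1h2ail1 row lie on the plus strand inside the 37373-base span of Hist1h2bo on the minus strand, and Hist1h2bq overlaps a gene on the plus strand. Whether counting used strand is not stated, so reads of these rows may be shared.

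Many of the genes lie close together. Chromosome 17 held 18 of the 34 rows (13 Hist and all 5 clustered H1 rows) between 43614101 and 44841382, and chromosome 2 held 4 Hist rows between 198360998 and 198389201. Chromosome 4 held 6 rows, of which 4 were Hist rows, spread from 119889371 to 170763916, in the coordinates of the deposited table, whose build was not stated. A further 14 histone rows carry newer symbols and are outside the rule. Of these, 12 were tested, among them the replacement histones H2az1 and H2az2 (means of 305.8 and 52.7 FPKM) and H2ax (104.4).

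Summed over the set, Hist rows were at 148, 182 and 164 CPM (the usual scaling of a count by its library's total count, here without TMM factors) in control libraries, 138, 164 and 157 in ovariectomized libraries and 125, 161 and 139 in treated libraries. The groups overlapped, and control library 2 was highest. The 4 tested and 3 low replacement rows together were at 1300, 1576 and 1259 in control, 1469, 1655 and 1437 in ovariectomized and 1544, 1508 and 1694 in treated libraries, again with overlap. The ratio of summed replacement FPKM to summed Hist FPKM was 7.62, 7.29 and 6.64 in control libraries. It was 8.87, 8.92 and 8.44 in ovariectomized libraries, all above the control values, and 10.4, 7.53 and 10.1 in treated libraries, where library 2 fell inside the control range. This ratio was a description over chosen rows and was not tested.

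In ovariectomized against control libraries, most replication-dependent rows had lower estimates while replacement rows did not. Of 21 Hist rows, 19 were lower and their median log2 fold change was -0.40, beside 51.5% lower (48.5% higher) and a median of -0.005 over all rows tested. Clustered H1 rows were lower in 3 of 4, with a median of -0.65, and all 4 replacement rows were higher, with a median of 0.08. No histone row passed the adjusted threshold in edgeR (adjusted p below 0.05), nor did any of the 15144 rows (0.0%). At an unadjusted p under 0.05, edgeR had 6 of the 29 histone rows, all lower, against 5.16% of all rows (1.74% lower and 3.42% higher). DESeq2 had 8, beside 637 higher and 378 lower of the 15144 rows. Leaving out replicate 3 of the control or of the ovariectomized group lowered the edgeR count to 3, and the replicate block gave 4. Over all rows these fits called 431 higher and 236 lower, 406 and 286, and 590 and 302, in that order. In 10 of the 29 rows the ovariectomized libraries were all below the control libraries, against 3.97% of all rows (9.13% in either direction). Rows that share reads are not independent of each other in these counts. Without control replicate 2, 17 of 21 Hist rows were lower with a median of -0.26, and the replacement median was 0.38. Without ovariectomized replicate 2, 20 of 21 Hist rows were lower, and the replacement median was -0.02 (-0.02 also without control replicate 3), so the sign of the replacement median rested on single libraries.

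The linker histone H1f5 (ENSRNOG00000060355, chromosome 17, 44766313 to 44766981, plus strand, within the span of Hist1h2bo) showed the clearest separation. Levels of single rows are given as CPM scaled by the TMM factors of edgeR, unless FPKM is named. Its level was 5.92, 7.44 and 7.42 CPM in control libraries, 4.05, 3.52 and 3.93 in ovariectomized and 3.02, 3.35 and 4.32 in treated libraries. All 3 control libraries were above all 6 others. The group means were 6.93 ± 0.87 CPM in control, 3.84 ± 0.28 in ovariectomized and 3.56 ± 0.68 in treated libraries (SD, n = 3). The log2 fold change was -0.85 ± 0.19 (SE; edgeR adjusted p = 0.887) in ovariectomized and -0.96 ± 0.19 (edgeR adjusted p = 0.43) in treated against control libraries. In DESeq2 the adjusted p was 0.00853 and 0.000854, where 0.469% and 1.02% of all rows passed. Both comparisons use the same control libraries.

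H1f4 was at 8.22, 8.51 and 9.61 CPM in control libraries, 6.19, 6.43 and 6.72 in ovariectomized and 4.72, 6.62 and 6.23 in treated libraries, again with all control libraries above the others. Its log2 fold change was -0.45 ± 0.16 (edgeR adjusted p = 0.913, DESeq2 adjusted p = 0.291) and -0.58 ± 0.16 (edgeR adjusted p = 0.503, DESeq2 adjusted p = 0.0433). H1f1, a linker histone at the end of the same cluster, was at 1.13, 1.10 and 1.40 CPM in control libraries. It was at 0.83, 0.15 and 0.40 in ovariectomized libraries and ranged from 0.069 to 1.08 in treated libraries. All control libraries were above the others here too, with 1.10 against 1.08 CPM at the nearest. Its log2 fold changes against control were -1.39 ± 0.83 (edgeR adjusted p = 0.986) and -1.06 ± 0.82 (edgeR adjusted p = 0.756). H1f2, whose upstream sequence shares AAACACA and CCAAT with H1f4 and H1f5, did not separate. It was at 115.3, 175.6 and 107.2 FPKM in control, 134.0, 145.1 and 152.2 in ovariectomized and 160.1, 149.4 and 168.2 in treated libraries, with log2 fold changes of 0.06 ± 0.19, and 0.17 ± 0.19 against control. H1f2 dominates the sum, and summed clustered H1 counts overlapped between groups (90.1 to 133 unscaled CPM in control, 100.4 to 113 in ovariectomized and 111 to 124 in treated libraries). Without H1f2 the sum was 14.7 to 18.7 in control, 10.1 to 11.3 in ovariectomized and 7.87 to 11.6 in treated libraries. That sum is mostly H1f4 and H1f5, whose separation is given above, so it is not a further result.

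**Figure D2:**
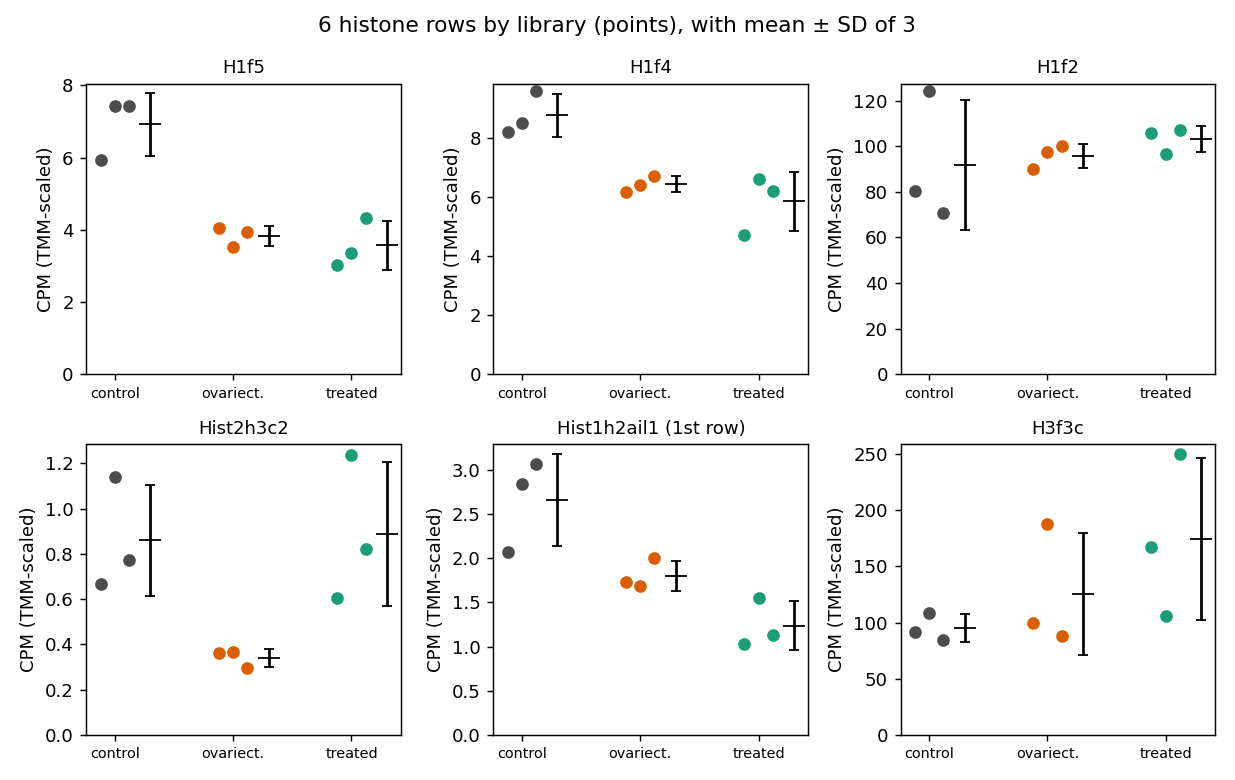
TMM-scaled CPM of 6 histone rows by library (points), with the mean and SD of the 3 libraries of each group in black, each panel starting at 0. H1f5 and H1f4 are higher in all 3 control libraries than in the other 6, H1f2 overlaps, and Hist2h3c2 is lower in the ovariectomized libraries alone.

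Among core histones, the H3 row Hist2h3c2 had the lowest mean level of those tested. It was at 0.67, 1.14 and 0.77 CPM in control libraries, 0.36, 0.37 and 0.29 in ovariectomized and 0.61, 1.24 and 0.82 in treated libraries. The ovariectomized libraries, with 19 to 23 counts each, lay below all others. Its log2 fold change was -1.33 ± 0.36 (edgeR adjusted p = 0.887) in ovariectomized against control, 1.38 ± 0.36 (edgeR adjusted p = 0.945) in treated against ovariectomized and 0.05 ± 0.34 in treated against control libraries. The first and second of these share the ovariectomized libraries. By symbol, all 10 H2A rows were lower in ovariectomized than in control libraries with a median of -0.57, beside 4 of 6 H2B rows (median -0.09), both H3 rows and all 3 H4 rows. The rows named for H2A at an unadjusted p under 0.05 were Hist1h2ak (-0.58 ± 0.24), the second Hist1h2an row (-0.68 ± 0.25) and Hist1h2ao (-0.64 ± 0.26). Among the 10 are both Hist1h2ail1 rows, with the span of rows named for H3, and Hist1h2ao, with that of rows named for H4. The first Hist1h2an row is typed as a pseudogene, so the families by symbol are uncertain. The 3 most abundant H2B rows of the Hist set were within 1 SE of 0 in this comparison. Hist1h2bq was at 0.01 ± 0.09, Hist3h2ba at -0.13 ± 0.22 and Hist2h2be at 0.03 ± 0.25. The H2B row H2bc12, under a newer symbol and outside the rule, had a mean of 23.45 FPKM, above Hist2h2be. It was at -0.49 ± 0.23 (edgeR adjusted p = 0.944).

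In treated against ovariectomized libraries the histone sets showed no common direction. Hist rows were higher in 11 and lower in 10, beside 49.1% and 50.9% of all rows, with a median of 0.03 (-0.007 with limma on FPKM values), clustered H1 rows in 2 and 2, and replacement rows were higher in 3 of 4. In edgeR no histone row passed the adjusted threshold (0.0% of all rows did). Hist2h3c2 was the 1 row of 29 at an unadjusted p under 0.05, against 5.07% of all rows (2.03% higher and 3.04% lower). DESeq2 had 1 as well, beside 414 higher and 557 lower of all rows. Leaving out ovariectomized replicate 1 raised the edgeR count to 3, beside 403 higher and 548 lower of all rows. Leaving out ovariectomized replicate 2, treated replicate 2 or control replicate 2 gave 2. All-row calls there were 253 higher and 369 lower, 303 and 423, and 353 and 483, in that order. The groups did not overlap in 3 Hist rows that were higher (Hist2h3c2, Hist2h4 and the second Hist1h2an row) and in 2 that were lower (Hist1h2af and the first Hist1h2ail1 row), against 12.1% of all rows (5.67% higher and 6.42% lower). Without treated replicate 2, which had the highest Hist sum of its group, the Hist median was -0.22.

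In treated against control libraries, 19 of 21 Hist rows were lower with a median of -0.35, against 50.0% lower estimates over all rows. Clustered H1 rows were lower in 3 of 4 with a median of -0.77 (-0.50 without treated replicate 1). The call count was 0 in edgeR after adjustment, for histone rows and for all rows (0.0%). At an unadjusted p under 0.05 there were 6 of 29 rows, 5 lower and 1 higher, against 8.55% of all rows (4.6% lower and 3.95% higher). DESeq2 had 7, beside 710 higher and 829 lower of all rows. All treated libraries were below all control libraries in 7 rows, against 6.68% of all rows (12.9% in either direction, 6.23% higher). Without treated replicate 2, all 21 Hist rows were lower and the median was -0.55. In that fit 11 histone rows had an unadjusted p under 0.05, beside 674 higher and 806 lower of all rows. Without control replicate 2 the median was -0.21.

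The first Hist1h2ail1 row (ENSRNOG00000054539) had the largest estimate among core rows in treated against control libraries. It was at 2.07, 2.84 and 3.06 CPM in control libraries, 1.73, 1.69 and 2.0 in ovariectomized and 1.02, 1.55 and 1.14 in treated libraries. The 3 groups did not overlap in any pair. The treated against control log2 fold change was -1.10 ± 0.25 (edgeR adjusted p = 0.481, DESeq2 adjusted p = 0.0161). This row lies inside the span of Hist1h2bo, which was at -0.31 ± 0.22, and its same-symbol copy was at -0.82 ± 0.52. Hist3h2ba, an H2B gene outside the main cluster, was at 27.8, 47.7 and 29.3 CPM in control and 22.8, 26.2 and 23.9 in treated libraries, a log2 fold change of -0.52 ± 0.22 (edgeR adjusted p = 0.561). Without control replicate 2 it was -0.23. Hist1h2ak was at -0.76 ± 0.24 (edgeR adjusted p = 0.511) and the H4 row Hist1h4m at -0.81 ± 0.36.

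Of the replacement rows, H3f3c had the largest estimates and the others were within 1 SE of 0 in both comparisons with control. H3f3c was at 84.8, 98.6 and 82.2 FPKM in control libraries, 95.8, 179.5 and 86.0 in ovariectomized and 162.2, 105.4 and 251.8 in treated libraries. Ovariectomized library 2 and treated libraries 1 and 3 were high, while treated library 2 lay near the control range. The deposited values imply 994 bases for its span of 995, so the row has no intron. Counts of H3f3c were 0.14 to 0.35 of those of H3f3a, and whether these rows share reads was not examined. The log2 fold change of H3f3c against control was 0.40 ± 0.35 in ovariectomized and 0.87 ± 0.35 (edgeR adjusted p = 0.55) in treated libraries. The latter was 0.52 without treated replicate 3, and the former -0.02 without ovariectomized replicate 2. H3f3a was at 0.08 ± 0.14 and 0.12 ± 0.14, H3f3b at 0.05 ± 0.10 and -0.07 ± 0.10, and H1f10 at 0.07 ± 0.30 and 0.20 ± 0.30, in that order. The sign for H3f3b in treated against control libraries became positive with limma on FPKM values (0.03). H1f10 ranged from 10.4 to 22.1 CPM within the control group alone, and without control replicate 2 its estimates were 0.52 and 0.66, against 0.02 in treated libraries without control replicate 1 or 3. Of the newer-symbol rows, which mix replication-dependent and replacement histones, 10 of 12 were lower in each comparison with control. H2az1 was higher at 0.10 ± 0.08 and 0.26 ± 0.08 (edgeR adjusted p = 0.505 for the second), and H2aj was at 0.002 ± 0.17 and 0.07 ± 0.17. The replacement histones H2ax and H2az2 were within 1 SE of 0, at -0.09 ± 0.14 in both for H2ax and -0.05 ± 0.16 and -0.03 ± 0.16 for H2az2. All other newer-symbol rows were lower in both.

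**Figure D3:**
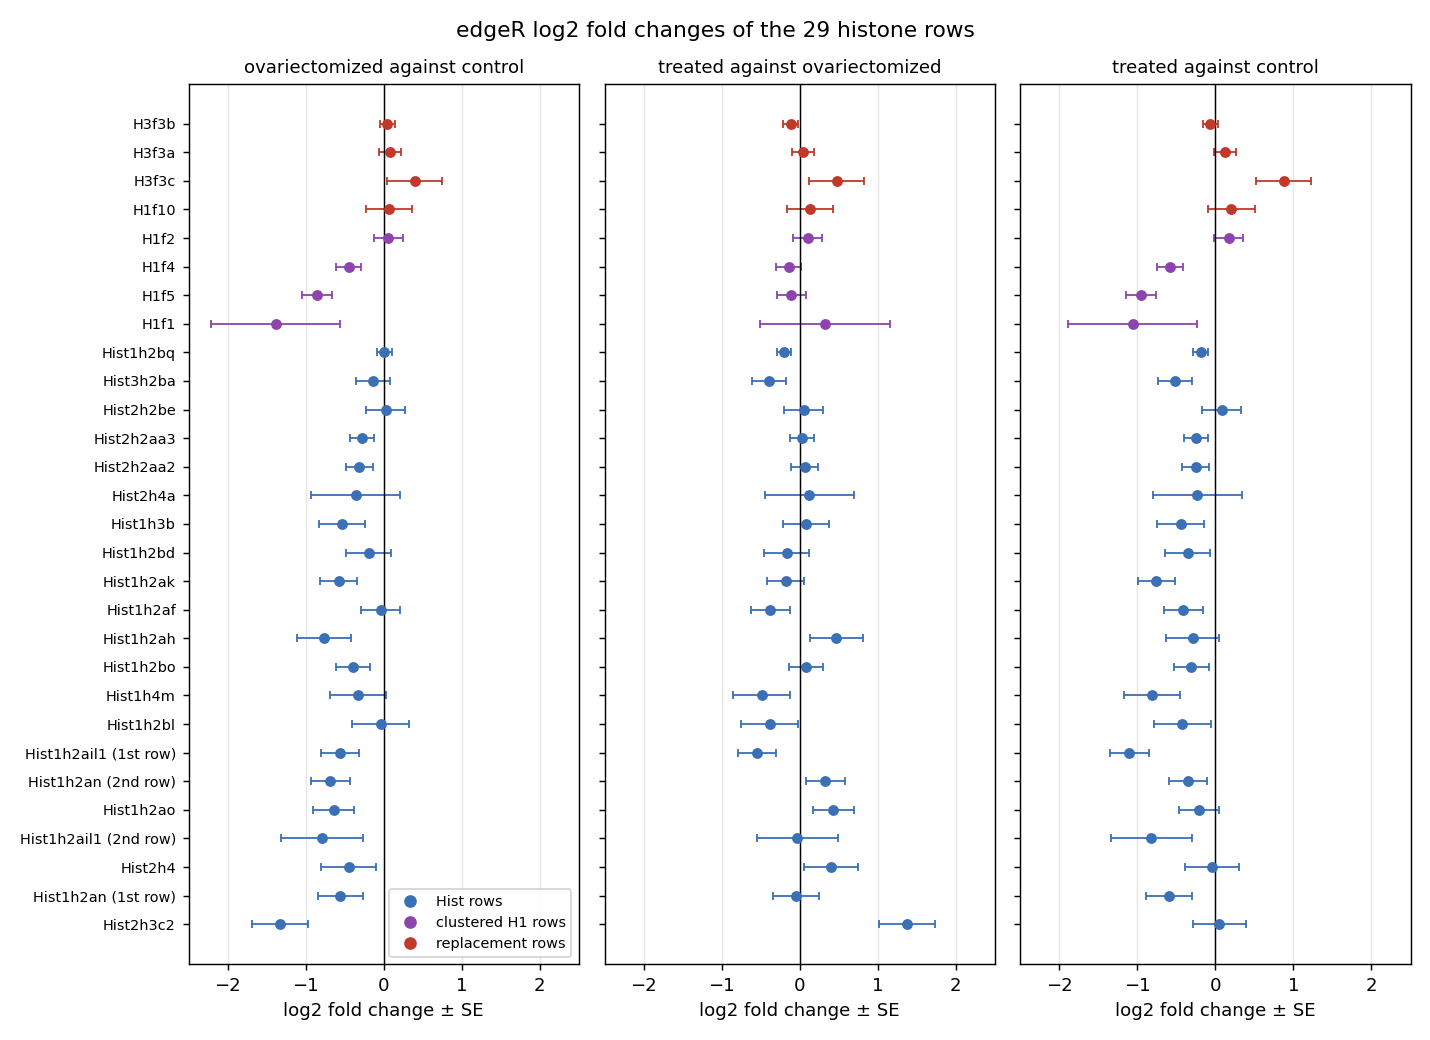
edgeR log2 fold change with its standard error for the 29 histone rows in the 3 comparisons, coloured by set, with 0 marked by a line. Hist rows lie mostly left of 0 in both comparisons with control (19 of 21 each) and on both sides in treated against ovariectomized libraries, while the standard error bars of H3f3a and H1f10 cross 0 in every panel.

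Genes that serve the histone supply mostly had small estimates. The histone messenger RNA processing list holds Slbp and the U7 machinery. It also holds the cyclins Ccne1 and Ccne2, which are not processing factors. Of its 18 tested members, 12 were lower in ovariectomized and 14 in treated against control libraries, with medians of -0.06 in each, beside the all-row medians of -0.005 and -5.4e-05. Slbp, which binds the stem-loop, was at 150.4 ± 28.9 CPM in control, 135.9 ± 6.0 in ovariectomized and 131.6 ± 16.7 in treated libraries (SD, n = 3). Ccne1 and Ccne2 were at -0.41 ± 0.15 and -0.43 ± 0.16 in treated against control libraries (edgeR adjusted p = 0.534 for both). Of 26 chaperone genes, which carry histones to DNA, 18 and 20 were lower against control, with medians of -0.05 and -0.06. The replication chaperones Chaf1a and Asf1b were at -0.03 ± 0.07 and 0.08 ± 0.13 in ovariectomized against control libraries. Hira, which places the H3 replacement variant, was at -0.09 ± 0.11. In treated against control libraries these 3 were at -0.13 ± 0.07, 0.01 ± 0.13 and -0.18 ± 0.11. The chaperone Set was at -0.12 ± 0.06 and -0.16 ± 0.06 in the comparisons of ovariectomized and treated libraries with control, in that order. Srcap, a remodeller that places H2A.Z, was at -0.06 ± 0.06 and -0.19 ± 0.06 (edgeR adjusted p = 0.511 for the second). No member of any of these lists passed the adjusted threshold in edgeR or DESeq2. At an unadjusted p under 0.05, edgeR had 0 members of both lists in ovariectomized against control libraries, against 5.16% of all rows. In treated against control libraries it had 3 of 18 processing-list members, among them Ccne1 and Ccne2, and 2 of 26 chaperone members. All of these were lower, against 4.6% of all rows lower.

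Markers of dividing cells mostly had lower estimates, of small size. Of 27 S phase genes, 22 were lower in each comparison with control (medians -0.07 and -0.12). Of 21 mitosis genes, 20 were lower in each (-0.08 and -0.13). In treated against ovariectomized libraries, 20 of 27 S phase and 17 of 21 mitosis genes were lower (medians -0.05 and -0.03). There 10 of 21 Hist rows and 50.9% of all rows were lower. Summed S phase CPM was 3307 to 4271 in control, 3548 to 3723 in ovariectomized and 3404 to 3644 in treated libraries, highest in control library 2. Pcna, the sliding clamp of replication, was at -0.09 ± 0.12 and -0.10 ± 0.12, and the proliferation marker Mki67 at -0.18 ± 0.18 and -0.36 ± 0.18. Tyms, which makes thymidylate, was at -0.63 ± 0.18 in treated against control libraries (edgeR adjusted p = 0.505). Gins2, of the replication helicase, was at -0.04 ± 0.06 and -0.13 ± 0.06, and the mitotic gene Cenpf at -0.22 ± 0.19 and -0.38 ± 0.19. Of the 22 small RNAs without a poly(A) tail that were listed, 8 had rows, and 6 of these were lower in each comparison with control. Their summed level was 4.64 to 7.51 CPM in control, 4.70 to 4.89 in ovariectomized and 4.40 to 5.06 in treated libraries. Snord100 was at -1.13 ± 0.32 and -0.42 ± 0.32, and Rnu11 at 1.07 ± 0.66 and -0.78 ± 0.69, all at levels below 1 CPM.

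Marker lists of the cell types that a femur holds had no member past the adjusted threshold in edgeR. DESeq2 called 1 muscle and 2 adipocyte genes in ovariectomized and 2 adipocyte genes in treated against control libraries. Over all rows, 0.469% and 1.02% passed there, in that order. At an unadjusted p under 0.05 in the first of these comparisons, edgeR had 6 muscle and 3 adipocyte genes higher, against 3.42% of all rows. It had 2 osteoblast and 5 cartilage genes lower, against 1.74%. In the second, 1 neutrophil and 5 adipocyte genes were higher at that threshold, against 3.95% of all rows. There 5 erythroid, 2 osteoblast and 2 cartilage genes were lower, against 4.6%. In ovariectomized against control libraries the ranges of the summed muscle, adipocyte and cartilage lists did not overlap, and those of the erythroid, osteoblast, B cell and neutrophil lists did. Single rows did not overlap in 9.13% of all rows, and no such share was computed for sums. All 7 erythroid precursor genes were lower in both comparisons with control, with medians of -0.13 and -0.42. All 7 were also lower in treated against ovariectomized libraries (median -0.28). Their sum was 4646 to 8187 CPM in control, 4782 to 5449 in ovariectomized and 3885 to 5079 in treated libraries. Of these, Gata1 and Klf1 were at -0.40 ± 0.10 and -0.48 ± 0.13 in treated against control libraries (edgeR adjusted p = 0.503 for both). All 6 muscle genes (median 1.77, 332.6 to 1001 CPM in control and 1165 to 5047 in ovariectomized libraries) and all 6 adipocyte genes (median 1.19, 444.5 to 1082 and 1229 to 1865 CPM) were higher in ovariectomized against control libraries. Cartilage genes were lower in 5 of 6 (median -1.63, 390.6 to 1271 and 295.6 to 341.9 CPM) and osteoblast genes in 6 of 6 (median -0.38, 4064 to 7674 and 2067 to 7354 CPM). B cell precursor genes had 6 of 8 higher and neutrophil precursor genes 5 of 7 higher in that comparison, with medians of 0.13 and 0.01. Their sums were 314.0 to 596.6 and 4089 to 6754 CPM in control, 360.3 to 679.6 and 4298 to 5890 in ovariectomized, and 421.6 to 608.8 and 4940 to 8412 in treated libraries. Their named members were Dntt (0.12 ± 0.26), Cd79a (0.26 ± 0.29), Camp (-0.04 ± 0.19) and Prtn3 (0.18 ± 0.26). In the same comparison the muscle genes Myh4 and Actn3 were at 1.98 ± 0.51 and 1.54 ± 0.42, and the adipocyte genes Lpl and Retn at 1.53 ± 0.34 and 1.43 ± 0.32. The cartilage genes Cnmd and Comp were at -2.28 ± 0.79 and 0.22 ± 0.21, and the osteoblast genes Ibsp and Alpl at -0.87 ± 0.50 and -0.35 ± 0.15. In treated libraries the sums were 803.8 to 1676 CPM for muscle, 1281 to 2162 for adipocyte, 168.9 to 566.1 for cartilage and 1794 to 5872 for osteoblast genes. No member of any list was at 0 counts in every library. The part of dividing cells, of tissue makeup and of poly(A) selection in the histone values was not tested.

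**Figure D4:**
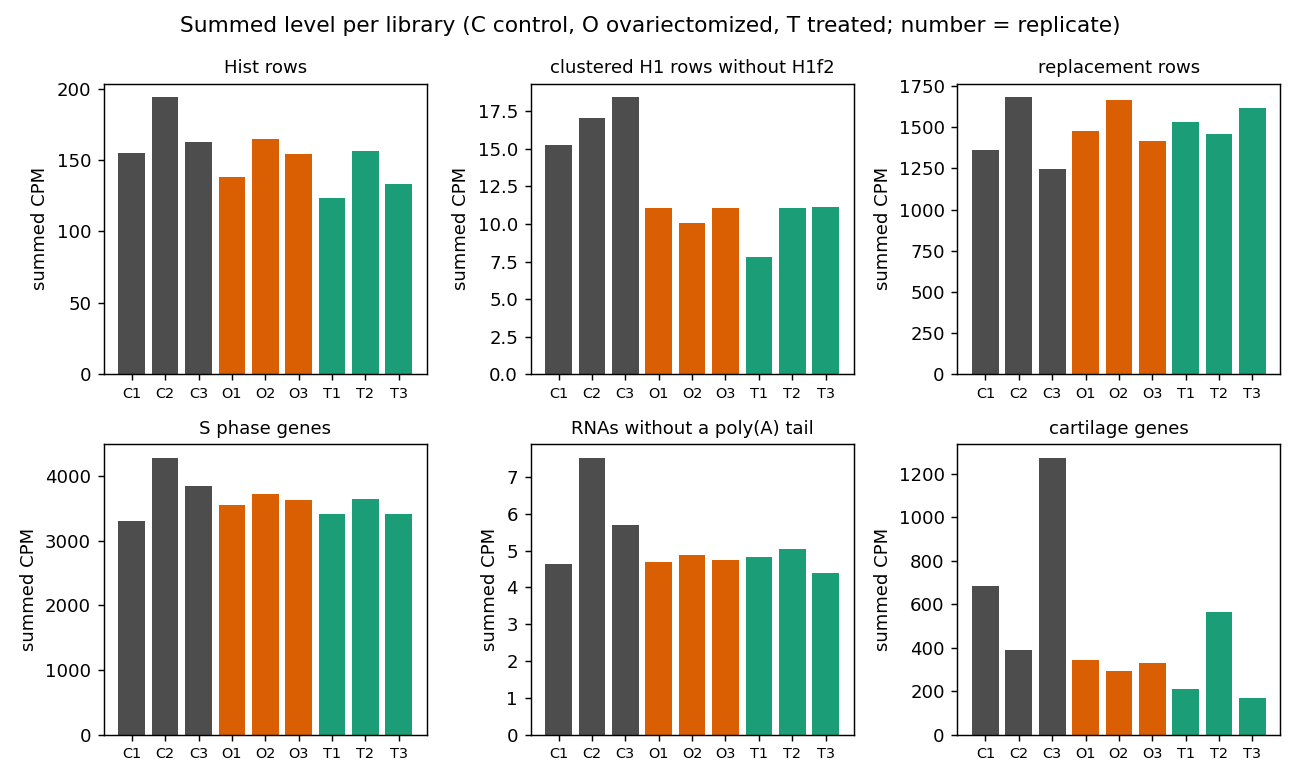
Summed TMM-scaled CPM per library for 3 histone sets (top) and 3 other lists (bottom), bars starting at 0, C1 to T3 naming group and replicate. Clustered H1 rows without H1f2, a sum mostly of H1f4 and H1f5, are highest in the 3 control libraries. With H1f2, which is not drawn, the groups overlap. Hist rows and S phase genes are highest in control library 2, and cartilage genes are highest in control library 3.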

How the data were processed

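Poly(A) RNA of 9 rat femora libraries had been sequenced. The authors' tools, per the submitters' processing notes, were fastp, HISAT2 and StringTie (no versions); no genome build is named there. Per the file headers, 1 deposited table gives counts and FPKM per gene. How the authors made the counts is not stated, and they were used as whole-number counts. The deposited FPKM is 0.0001 where the count is 0. Rows with a mean of at least 0.5 FPKM were tested on counts with edgeR 4.0.16 (TMM, quasi-likelihood, 1 fit over 9 libraries, Benjamini-Hochberg over 15144 rows, threshold 0.05), in R 4.3.3. The standard error of an edgeR estimate was derived from the estimate and the F statistic of its test. DESeq2 1.42.0 and limma 3.58.1 on log2(FPKM + 1) were alternatives. CPM values are TMM-scaled unless stated. The edgeR fit was tested on simulated counts, for treated against ovariectomized libraries only. Same-numbered control and ovariectomized libraries deviated together (correlations of 0.25, 0.14 and 0.16), a pairing that comes from the data, and a fit with the replicate number as a block was run. In precision, a level is limited by counting for rows of few counts and otherwise by the spread of 3 libraries. The members and lists were chosen with earlier results of these data known. Named were every replacement row, the 8 highest Hist rows, Hist2h3c2, up to 6 non-overlapping rows of smallest p per comparison, and of each list the 2 members of smallest p, with Slbp, Pcna, Mki67, Chaf1a, Asf1b and Hira. Other histone rows were named after their values were seen.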

Additional observations from a re-analysis of the deposited data

How the results depend on the processing

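With limma on log2(FPKM + 1), whose values were not TMM-scaled, unadjusted calls over all rows were 732 higher and 183 lower in ovariectomized against control (edgeR 518 and 264), 568 and 289 in treated against ovariectomized (307 and 461) and 1454 and 320 in treated against control libraries (598 and 697). DESeq2 adjusted calls were 71, 31 and 154 of all rows in that order, and 1 and 3 histone rows in ovariectomized against control and treated against control. Fits of the 2 groups compared alone gave 2, 1 and 1 adjusted calls. In treated against ovariectomized libraries, limma with either pseudocount (1 or 0.1), the fit of 2 groups and the replicate block each gave 2 histone rows at an unadjusted p under 0.05 instead of 1.

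In the comparisons with treated libraries, where same-numbered correlations ran from -0.13 to 0.09, the numbers were not taken to pair the libraries. Of the 9 libraries, 7 were closest to their own number. With the replicate block, unadjusted calls over all rows were 590 higher and 302 lower, 355 and 583, and 808 and 772, adjusted calls stayed at 0, and histone rows at an unadjusted p under 0.05 numbered 4, 2 and 6. The block turned Hist2h4a in treated against ovariectomized libraries to -0.064 and Hist2h4 in treated against control libraries to 0.0098. With limma and pseudocounts of 1 and 0.1, values turned to 0.031 and 0.039 for Hist1h2af in ovariectomized against control, -0.13 and -0.17 for Hist2h4a in treated against ovariectomized, and 0.026 and 0.026 for H3f3b and 0.082 and 0.13 for Hist2h4 in treated against control libraries.

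Leaving out each library in turn gave 3 to 9, 1 to 3 and 4 to 11 histone rows at an unadjusted p under 0.05, and 0 to 4, 0 to 1 and 0 to 3 adjusted calls over all rows. Unadjusted calls over all rows in these fits were 406 to 581 higher and 233 to 453 lower, 197 to 408 and 273 to 548, and 362 to 1131 and 381 to 984. The Hist median ran from -0.50 to -0.26, -0.22 to 0.13 and -0.55 to -0.21, and the replacement median from -0.024 to 0.38, 0.03 to 0.20 and 0.0081 to 0.48. Of the named rows, 24 values changed sign. In ovariectomized against control these were H1f10 (-0.13 to 0.52), H1f2 (-0.096 to 0.34), H3f3a (-0.042 to 0.25), H3f3b (-0.020 to 0.14), H3f3c (-0.022 to 0.60), Hist1h2af (-0.21 to 0.18), Hist1h2bq (-0.053 to 0.079), Hist2h2be (-0.22 to 0.23) and Hist3h2ba (-0.28 to 0.15). In treated against ovariectomized libraries they were H1f10 (-4.2e-05 to 0.34), H1f5 (-0.27 to 0.00035), H3f3a (-0.030 to 0.086), Hist1h2bd (-0.46 to 0.046), Hist1h3b (-0.18 to 0.28), Hist2h2aa2 (-0.078 to 0.16), Hist2h2aa3 (-0.11 to 0.13), Hist2h2be (-0.15 to 0.30) and Hist2h4a (-0.78 to 0.56). In treated against control they were H3f3a (-0.0031 to 0.30), H3f3b (-0.12 to 0.030), Hist2h2be (-0.067 to 0.23), Hist2h3c2 (-0.27 to 0.31), Hist2h4 (-0.34 to 0.19) and Hist2h4a (-1.14 to 0.20). The cause was not tested. Chosen after seeing the data, counting clustered H1 or newer-symbol rows with either set, or 1 row of each copy pair, kept the Hist medians within -0.45 to -0.38, -0.03 to 0.04 and -0.41 to -0.33. The replacement medians of 0.08, 0.09 and 0.16 became 0.05, 0.07 and 0.03 with clustered H1 rows and 0.06, 0.06 and 0.10 with newer-symbol rows.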
